A study of Mus musculus with 3 samples.

Results

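The cells described here are the RNA-rich microglia of 1 single-cell library, called library 3: the 223 cells in which at least 9000 unique molecular identifiers (UMIs, the tags by which each captured transcript is counted once) were found. They were compared with the 1477 average cells of the same library, which held 4000 to 6000 UMIs. Library 3 holds 3322 of the 7522 cells of the series, so the RNA-rich cells are 6.71% of its cells and carried 12.1% of its UMIs. Both groups were chosen by the measured UMI total, which is therefore a description and not a result. Every cell was thinned to 4000 UMIs drawn without replacement before genes were compared, so that each ratio below is a ratio of shares of UMIs at equal depth.

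The study sorted YFP (+) cells from the lumbar spinal cord of C57BL/6 mice heterozygous for Cx3cr1-creER-yfp, from naive mice and from mice whose sciatic nerve had been cut 24 h or 48 h earlier (transection), to follow microglia as they enter the cell cycle. All 3 groups carried the reporter allele, which marks any cell that expresses Cx3cr1, and the sort used size selection and doublet exclusion. The cords of 3 animals were pooled for each group and made into 1 droplet library, so no group has a replicate. The cell barcodes end in 1, 2 or 3, and no source used here ties these endings to a group, so libraries 2 and 3 are libraries of unknown time point.

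Microglia are the resident macrophages of the central nervous system. A resting microglia holds little cytoplasm, and cells that grow before division or secrete proteins on demand build more ribosomes, make more chaperones and raise glycolysis, so that the amount of RNA per cell and its composition can both change. The UMI total of a droplet also depends on how well its RNA was captured, and on whether it held 1 cell or more, and these sources cannot be told apart here.

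In library 3, the RNA-rich cells gave larger shares of their UMIs to chemokine genes led by Ccl2 and Ccl12, to nucleolar genes such as Npm1 and Ncl, to chaperones, to glycolytic enzymes and to replication genes. They gave smaller shares to the nuclear RNA Malat1, whose ratio of 0.829 is short of the fold used below, and to P2ry12 and Gpr34, the 2 lower genes of a list of 25 homeostatic microglia genes that summed to a ratio of 0.965 and of which 10 lay above 1. The immediate early genes, the complement genes and the lysosomal genes held close to the same share in both groups. With 1 library and no replicate, no test was made. Intervals of ratios and of CPM are 95% intervals for counting error alone and leave out how much cells or animals vary. Those of shares of cells take each cell as an independent draw from 1 pooled library, and leave out how much animals vary.

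**Figure D1:**
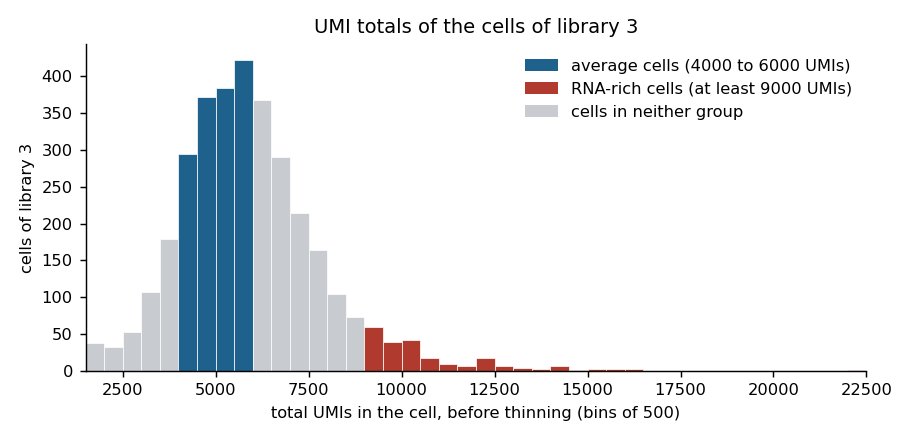
Number of cells of library 3 (vertical axis) by total UMIs before thinning (horizontal axis). The 223 RNA-rich cells form the right tail from 9012 to 22106 UMIs, and the 1477 average cells lie around the middle of the distribution, with no gap at either limit.

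The RNA-rich cells held between 9012 and 22106 UMIs (median 10124) and the average cells between 4005 and 6000 (median 5085), and the mean total differed 2.11-fold. Library 2 had 611 RNA-rich and 1463 average cells by the same limits, and library 1 had 0 and 9 and was not compared. In all, 19 barcodes were shared by libraries 2 and 3, 2 of them on RNA-rich and 7 on average cells of library 3, and 3 were shared by libraries 1 and 3. Leaving out shared barcodes moved the Ccl2 ratio from 2.05 to 2.06.

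At the lower limit of the RNA-rich group, the 73 cells with 8500 to 9000 UMIs gave the cytokine and chemokine list 8417.8 CPM (UMIs of the list per 1000000 UMIs), and the 60 cells with 9000 to 9500 gave it 8804.2. For Malat1, the cells just outside this lower limit had 43616.4 CPM and those just inside had 43016.7, while Ccl2 had 483 CPM (406 to 570) and 604 CPM (510 to 711). At the upper limit of the average group, Ccl2 had 366 CPM (338 to 396) in the 426 cells just inside and 539 CPM (502 to 578) in the 365 cells just outside, and the cytokine and chemokine list had 6647.3 CPM (6525.4 to 6770.9) and 7399.3 CPM (7260.4 to 7540.2). The cells just outside this limit thus held a larger share of Ccl2 than those just inside, by more than the counting error.

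Both groups were microglia by their markers. All 10 microglia markers examined (among them P2ry12, Tmem119, Csf1r and Fcrls) were found, and every one of the 223 and 1477 cells held UMIs of the set. The markers of monocytes came to 3 UMIs in the RNA-rich and 16 in the average cells, with Ly6c2 and Chil3 at 0 in both. Those of perivascular macrophages came to 2 and 11 UMIs, with Cd163, Lyve1 and Ms4a7 at 0. After thinning, 2 different markers of oligodendrocytes were found in 21 RNA-rich and 124 average cells, of neutrophils in 0 and 8, of astrocytes in 0 and 4 and of erythroid cells in 0 and 1. Neutrophil markers came to 2 UMIs in the RNA-rich and 55 in the average cells, up to 11 in 1 cell. Oligodendrocyte markers were the most abundant foreign set, at 166 CPM in the RNA-rich and 149 CPM in the average cells (ratio 1.11, interval 0.927 to 1.32), and astrocyte markers stood at 97.5 and 121 CPM (ratio 0.804, interval 0.636 to 1.005). The part of these foreign transcripts in the differences below was not tested. When every cell that, among all its UMIs, held at least 2 markers of 1 other cell type was left out, 148 RNA-rich and 1276 average cells remained. Among these the Ccl2 ratio was 2.14 and that of the cytokine and chemokine list was 1.38. That filter used UMIs before thinning, of which the RNA-rich cells hold more, and it keeps cells with 1 foreign marker, so it does not decide the question.

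The number of different genes found per cell did not separate the groups once depth was equal. At 4000 UMIs an RNA-rich cell held a median of 1820 genes (lowest 1667, highest 1976) and an average cell a median of 1823 (lowest 1638, highest 2000). Before thinning the medians were 3280 and 2146. The mitochondrially encoded share of UMIs had a median of 1.28% over the RNA-rich and 1.17% over the average cells.

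Of the 3156 genes with a mean of at least 50 CPM over both groups, 165 had a share at least 1.3 times higher in the RNA-rich cells (5.23% of the genes tested) and 134 at least 1.3 times lower (4.25%). The ratios of the genes tested ran from 0.580 to 2.05 with a median of 1.01. For 156 of the 165 higher and 109 of the 134 lower genes the counting interval of the ratio lay on 1 side of 1, and 9 and 25 genes passed the fold with an interval that included 1. The genes were picked by the ratio of the same UMIs, so this follows in part from the choice and is no independent support. The numbers of genes past the fold move with the number of UMIs that enter them. Using all UMIs of the same cells in place of 4000 per cell, 93 genes were higher and 78 lower. Among the 734 genes with at least 200 CPM, 32 were higher and 16 lower, and for each of these the interval from all UMIs also lay on the same side of 1. All UMIs of these cells include the thinned UMIs by which the genes were picked, so this is not an independent check. With the RNA-rich cells limited to those of at least 10000 UMIs, 39 of the 53 higher genes that stand in a list were past the fold and 14 were not, and those among the 14 that are named below are given with their value there.

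**Figure D2:**
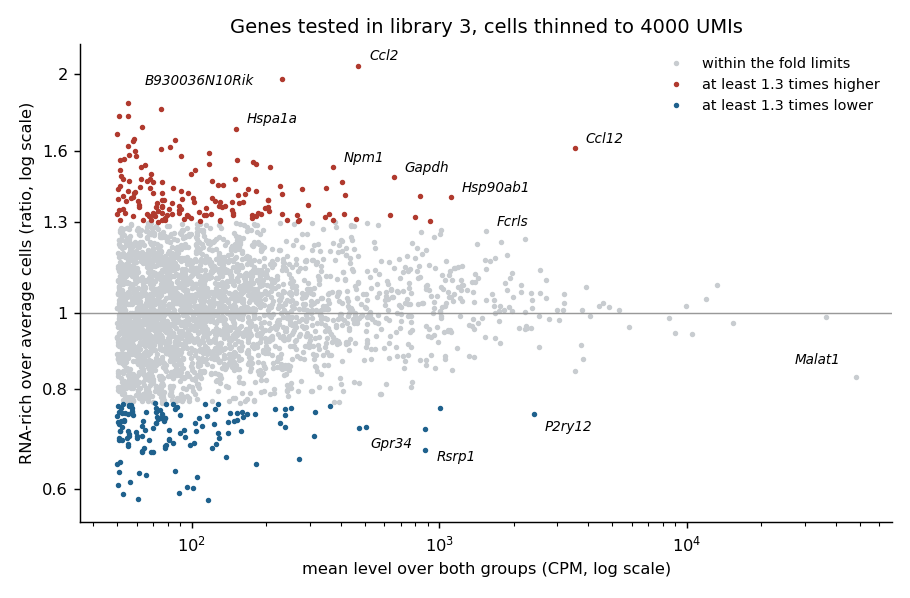
Ratio of the share of UMIs in RNA-rich over average cells of library 3 (vertical axis, log scale) against the mean level over both groups (horizontal axis, CPM, log scale) for the 3156 genes tested, after thinning to 4000 UMIs per cell. Ccl2 (2.05) is highest, Ccl12 (1.61) stands apart among abundant genes, and Malat1 (0.829), the most abundant transcript named, lies below 1.

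Chemokines are secreted proteins that draw leukocytes along a gradient, and Ccl2, Ccl7 and Ccl12 encode ligands of the monocyte receptor CCR2. The 3 genes lie in order within 1 cluster on chromosome 11 of the GRCm38 build, Ccl2 at chr11:82035571-82037453, Ccl7 at chr11:82045712-82047525 and Ccl12 at chr11:82101845-82103400, all on the plus strand. All 3 were past the fold in the RNA-rich cells, though for Ccl7 1 cell held 18 of the 63 UMIs.

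In thinned cells, Ccl12 ran from 3 to 63 UMIs per RNA-rich cell with a median of 14, and from 1 to 77 UMIs per average cell with a median of 9. The ranges overlapped. The lowest value, the median and the 95th percentile (43 against 27 UMIs) were higher in the RNA-rich cells, while the highest value was lower. The level of Ccl12 was 4365.5 CPM against 2708.2 CPM, a ratio of 1.61 (interval 1.56 to 1.67).

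Ccl2 was distributed otherwise. Its median was 1 UMI in both groups. At least 1 UMI was found in 69.5% of RNA-rich cells (Clopper-Pearson interval 63.0 to 75.5) and in 56.8% of average cells (54.2 to 59.4), and 39 of 223 RNA-rich cells (17.5%, 12.7 to 23.1) held 5 or more UMIs, against 79 of 1477 average cells (5.35%, 4.26 to 6.62). The highest values were 22 and 20 UMIs. The level of Ccl2 was 633 CPM against 309 CPM, a ratio of 2.05 (1.86 to 2.25), the largest of the genes tested. Counting all UMIs, an RNA-rich cell held 6.99 Ccl2 UMIs on average and an average cell 1.61, which is 4.34-fold, where the totals differed 2.11-fold.

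Ccl7 was sparse, with 63 and 236 UMIs in all, 18 of the 63 in 1 cell. It was found in 13.5% of RNA-rich cells (9.26 to 18.6) and in 11.8% of average cells (10.2 to 13.5). Its ratio was 1.77 (1.32 to 2.34) and 1.65 from all UMIs. Tnf, the gene of tumour necrosis factor, had 215 CPM against 139 CPM (ratio 1.55, 1.32 to 1.81), and Ccl4, another secreted chemokine, had 910 against 689 CPM (ratio 1.32, 1.22 to 1.42). With RNA-rich cells of at least 10000 UMIs, Ccl4 had a ratio of 1.11 (0.998 to 1.24), short of the fold, while Tnf had 1.57 (1.27 to 1.92). Ccl3, its close relative, had 945 and 749 CPM and a ratio of 1.26 (1.17 to 1.36), short of the fold.

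Of 26 cytokine and chemokine genes listed, 12 could be tested. Of these, 5 were higher and none lower, where 5.23% and 4.25% of all genes tested were. Their median ratio was 1.22 beside 1.01 over all genes tested. The sum of the list was 30 UMIs in the median RNA-rich cell (11 to 95) and 21 in the median average cell (7 to 190), at a ratio of 1.41 (1.38 to 1.45). Not all its members had raised shares: Tgfb1 stood at 0.971 (0.872 to 1.08), Cxcl16 at 0.909 (0.703 to 1.16) and Ccl9 at 0.870 (0.742 to 1.02). The NF-kB pathway and feedback list, whose factor drives several of these genes, summed to a ratio of 0.999 (0.950 to 1.05). Within it Nfkbiz, an inducible cofactor, was higher at 1.34 (1.15 to 1.56), Cd83 was lower at 0.658 (0.528 to 0.811), and from 10000 UMIs neither passed the fold, at 1.13 and 0.780. Tnfaip3, which encodes the A20 brake on the pathway, had 23 and 166 UMIs (ratio 0.918, 0.566 to 1.42).

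Because Ccl12 carried the most UMIs of the chemokine list and Hspa1a, an inducible heat shock protein gene, had the highest ratio of the chaperones, their start regions are shown as RefSeq gives them for GRCm38.p6, each on the gene's own strand from 250 bases before to 50 bases after the start. The Ccl12 window is chr11:82101595-82101894 on the plus strand, with the TATA box letters TATAAA in capitals, 1 match at position -31 from the start. The Hspa1a window is chr17:34972107-34972406 on the minus strand, with the core of a heat shock element, GAANNTTC, in capitals, 1 match at position -104.
Ccl12: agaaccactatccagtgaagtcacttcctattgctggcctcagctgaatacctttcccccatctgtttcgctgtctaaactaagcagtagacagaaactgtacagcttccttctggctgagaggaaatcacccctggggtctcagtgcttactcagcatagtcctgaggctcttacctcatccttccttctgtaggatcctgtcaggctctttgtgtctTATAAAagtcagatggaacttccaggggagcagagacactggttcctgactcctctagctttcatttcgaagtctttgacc
Hspa1a: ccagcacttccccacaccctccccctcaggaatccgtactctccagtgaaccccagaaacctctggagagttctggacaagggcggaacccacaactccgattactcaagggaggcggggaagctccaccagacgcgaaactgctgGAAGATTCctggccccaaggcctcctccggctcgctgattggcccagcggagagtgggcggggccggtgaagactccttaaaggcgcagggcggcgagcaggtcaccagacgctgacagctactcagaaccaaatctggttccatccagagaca

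Searched on both strands, TATAAA was in 10.2% of the 147 start regions found for 122 of the 165 higher genes, in 4.29% of the 140 found for 92 of the 134 lower genes, in 7.45% of the 3168 regions of the genes tested and in 13.6% of all 32851 regions. CACGTG, the E-box letters that Myc and Max bind, was in 14.3%, 10.0%, 11.3% and 7.15% of them in the same order. GAANNTTC was in 4.76%, 6.43%, 6.22% and 7.86%. These are matches of letters, not sites of binding.

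Ribosomal RNA is transcribed, trimmed and packed with protein in the nucleolus. Of 46 genes listed for this work, 32 could be tested, 11 were higher and none lower in the RNA-rich cells, against 5.23% and 4.25% of all genes tested. Their median ratio was 1.22 and their summed share was 1.25 times that of the average cells (1.21 to 1.29), with 17 UMIs in the median RNA-rich cell (4 to 32) and 14 in the median average cell (3 to 33).

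Npm1, a nucleolar histone and ribosome chaperone, had 448 CPM against 294 CPM (ratio 1.53, 1.37 to 1.70). Ncl, which encodes nucleolin, had 488 against 347 CPM (ratio 1.41, 1.26 to 1.56). Both held UMIs in most cells, with up to 9 and 8 in 1 RNA-rich cell. The highest ratios of the list, 1.84 (1.37 to 2.43) for Mybbp1a and 1.77 (1.301 to 2.38) for Rrp15, rested on 64 and 58 UMIs in the RNA-rich cells and came to 1.45 and 1.35 when all UMIs were counted. The 3 lowest members, Ubtf at 0.806 (0.578 to 1.10), Nip7 at 0.893 (0.661 to 1.19) and Polr1c at 0.974 (0.711 to 1.31), had intervals that included 1.

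In library 3, transcripts of ribosomal proteins differed less than those of the genes for ribosome biogenesis. In library 2 the ratios were 1.086 (1.081 to 1.091) for ribosomal proteins and 1.12 (1.09 to 1.15) for ribosome biogenesis. The 84 cytosolic ribosomal protein genes summed to a ratio of 1.07 (1.06 to 1.08) in library 3, and of the 81 tested 70 lay above 1. Rps2 alone passed the fold, at 1.31 (1.22 to 1.401), where 5.23% of all genes tested were higher and 4.25% lower. Translation factors summed to 1.08 (1.06 to 1.10), with Eef1g (1.33) and Eif5a (1.33) higher. Myc, which encodes a transcription factor that drives ribosome genes, had 93.1 CPM against 88.7 CPM (ratio 1.05, 0.822 to 1.33).

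Heat shock proteins and chaperones fold new and damaged proteins. Of 30 listed genes 26 could be tested, 7 were higher and none lower, and 25 of the 26 lay above 1, with a median of 1.22, beside 5.23% higher and 4.25% lower over all genes tested. Their sum was 50 UMIs in the median RNA-rich cell (25 to 83) and 40 in the median average cell (15 to 77), a ratio of 1.22 (1.20 to 1.25). Hsp90ab1, the constitutive HSP90, ran from 0 to 14 UMIs (median 5) in RNA-rich cells and from 0 to 15 (median 3) in average cells, at 1297.1 and 928.6 CPM (ratio 1.397, 1.31 to 1.49). Hspd1, the mitochondrial HSP60, had a ratio of 1.37 (1.15 to 1.63).

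Hspa1a, an inducible HSP70, had the highest ratio of the list, 1.71 (1.43 to 2.02), at 191 and 112 CPM. Its median was 0 UMIs in both groups and 5 RNA-rich cells held 25.9% of its UMIs. With RNA-rich cells of at least 10000 UMIs it had 129 CPM and a ratio of 1.16 (0.879 to 1.49), and was no longer higher. It shares nearly all its sequence with Hspa1b, so the division of reads between both genes is uncertain. Proteasome genes, which degrade tagged proteins, summed to 1.12 (1.08 to 1.15), with 4 of 31 higher beside that 5.23%, led by Psma5 at 1.59 (1.303 to 1.93).

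Among glycolytic genes 12 of 19 were tested, and 3 were higher and none lower, where 5.23% and 4.25% of all genes tested were. Gapdh had 784 CPM in the RNA-rich and 529 CPM in the average cells (ratio 1.48, 1.36 to 1.61), Pkm had 411 and 286 (ratio 1.44, 1.28 to 1.61), and Ldha had 411 and 309 (ratio 1.33, 1.19 to 1.49). Of the 12 tested genes 10 lay above 1, while Hk2 stood at 0.986 (0.879 to 1.10) and Pfkfb3 at 0.976 (0.732 to 1.28). Nuclear-encoded genes of oxidative phosphorylation summed to 1.10 (1.08 to 1.12) with 4 of 73 higher, beside 5.23% of all genes tested, and the mitochondrially encoded genes to 1.09 (1.07 to 1.11) with 1 of 12 higher, mt-Atp8 (1.39, and 1.23 from 10000 UMIs).

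**Figure D3:**
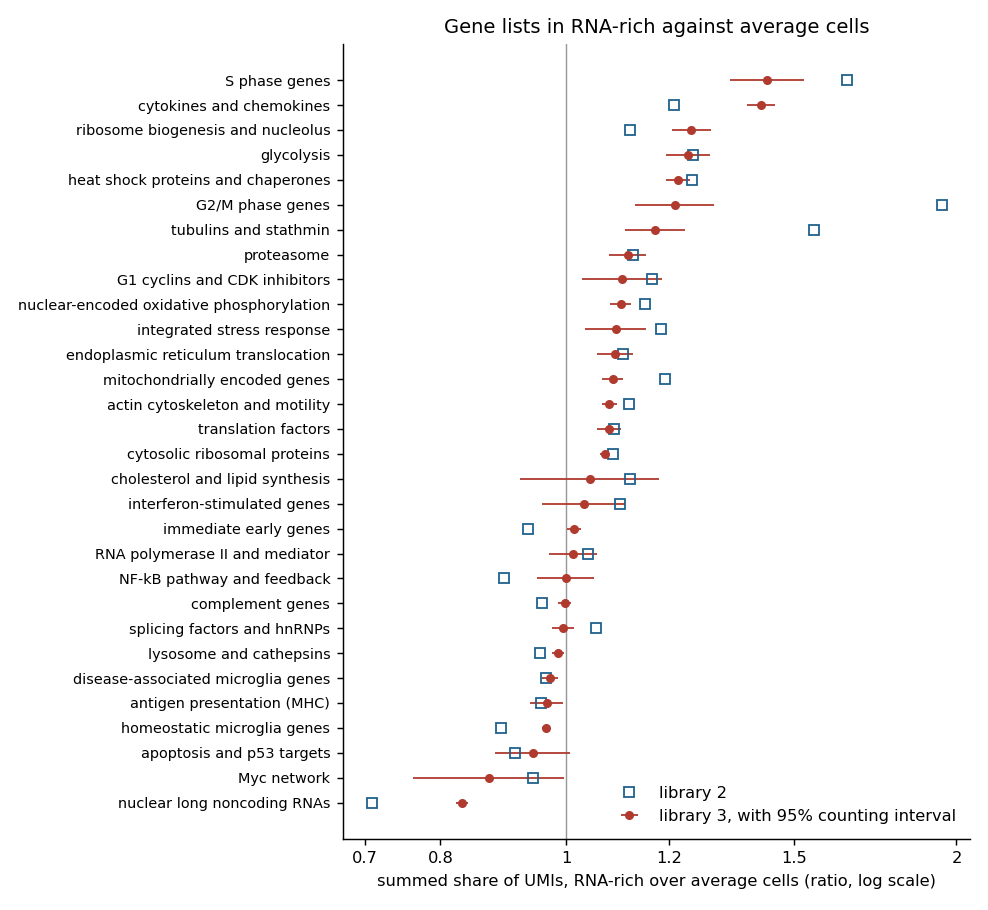
Ratio of the summed share of UMIs in RNA-rich over average cells (horizontal axis, log scale) for 30 gene lists in library 3 (filled circles, bars are 95% counting intervals) and library 2 (open squares). S phase genes (1.43) and cytokines and chemokines (1.41) are highest and nuclear long noncoding RNAs (0.831) lowest in library 3.

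S phase genes serve DNA replication and G2/M genes serve mitosis. Most are rare in library 3: of 43 S phase genes 4 could be tested, and of 54 G2/M genes 5. The S phase list summed to 1243.3 CPM against 870 CPM (ratio 1.43, 1.34 to 1.53), with 0 to 24 UMIs per RNA-rich cell (median 4) and 0 to 19 per average cell (median 3). Pcna, the sliding clamp of the replication fork, was higher at 1.58 (1.18 to 2.07), and so was Tipin, of the fork protection complex, at 1.72 (1.303 to 2.24). Mcm3, a subunit of the replicative helicase that stands in no list here, was higher at 1.80 (1.403 to 2.29).

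The G2/M list summed to 1.21 (1.13 to 1.3), and 2 of its 5 tested genes, Tmpo (1.61, 1.25 to 2.05) and Anp32e (1.31, 0.996 to 1.70, and 1.26 from 10000 UMIs), were higher, beside 5.23% of all genes tested. Neither of them is a mitotic gene proper, Tmpo encoding a protein of the nuclear lamina and Anp32e a histone chaperone. Mki67, the gene of the proliferation marker Ki-67, had 3 UMIs in the RNA-rich and 4 in the average cells, and Cdk1, the mitotic kinase, had 6 and 24, so that no fold is given for either. At 4000 UMIs, 10 of 223 RNA-rich cells (4.48%, 2.17 to 8.09) and 48 of 1477 average cells (3.25%, 2.41 to 4.29) held a UMI of Mki67, Top2a or Cdk1, and without thinning these were 12.1% and 3.93%. When all cells with such a UMI before thinning were left out, 196 RNA-rich and 1419 average cells remained. The ratio was then 1.35 for the S phase list, 1.11 for the G2/M list, 2.01 for Ccl2 and 1.26 for ribosome biogenesis. The cells left out were picked by cell cycle genes, so lower ratios of the S phase and G2/M lists follow in part from that choice. In library 2 the same 3 genes were found in 72.8% of RNA-rich and 53.3% of average cells after thinning.

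Stmn1, which encodes a protein that destabilizes microtubules, was higher at 1.62 (1.27 to 2.04), with up to 8 UMIs in 1 RNA-rich cell and 4 in 1 average cell. The other 6 tested tubulin genes did not pass the fold, Tuba1b coming nearest at 1.29 (1.16 to 1.42). Cdk4, the G1 kinase, was the 1 of 6 tested genes of G1 cyclins and inhibitors that was higher (1.31, 1.07 to 1.58, and 1.29 from 10000 UMIs), beside 5.23% of all genes tested. Cdkn1a, the gene of the inhibitor p21, stood at 0.984 (0.860 to 1.12).

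Malat1 is a long noncoding RNA that stays in the nucleus, at speckles rich in splicing factors. It lies at chr19:5795690-5802672 and was the most abundant transcript named here. Average cells held 64 to 337 Malat1 UMIs (median 208) and RNA-rich cells 92 to 260 (median 174), at 52585.0 and 43616.6 CPM. The ratio was 0.829 (0.821 to 0.838), and in whole cells the count was 469 against 266 UMIs, 1.76-fold where the total differed 2.11-fold.

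Neat1, the scaffold of nuclear paraspeckles, had a ratio of 0.936 (0.816 to 1.07), and the other 2 tested members, Snhg12 and Kcnq1ot1, had ratios of 0.971 and 0.955, so the list total of 0.831 is mainly that of Malat1. Splicing factors and hnRNPs summed to 0.994 (0.975 to 1.01), with 3 of 44 higher (Hnrnpa1, Hnrnpa3 and Hnrnpd) and 2 lower (Prpf4b and Hnrnph1), near the 5.23% and 4.25% of all genes tested. From 10000 UMIs, Hnrnpa1 stood at 1.25 and Prpf4b at 0.801, short of the fold. Rsrp1, an arginine- and serine-rich protein gene that was named after its values were seen, was lower at 0.670 (0.617 to 0.728), with a median of 3 UMIs per RNA-rich and 4 per average cell.

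The homeostatic genes mark microglia at rest. All 25 listed were tested, none was higher and 2 were lower, where 5.23% and 4.25% of all genes tested were, and 10 of the 25 lay above 1. Their sum was 337 UMIs in the median RNA-rich cell (248 to 442) and 347 in the median average cell (257 to 472), a ratio of 0.965 (0.958 to 0.972). The members did not move together. P2ry12, the ADP receptor through which microglia sense injury, ran from 2 to 22 UMIs per RNA-rich cell (median 8) and from 1 to 25 per average cell (median 11), at 2057.2 and 2763.4 CPM, and was lower at 0.744 (0.709 to 0.781). Gpr34, a receptor for lysophosphatidylserine, was lower at 0.714 (0.658 to 0.775).

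Fcrls, a microglial scavenger receptor gene, lay on the other side at 1.27 (1.20 to 1.34), with medians of 7 and 5 UMIs, still short of the fold. Tmem119 stood at 0.911 (0.877 to 0.945), Cx3cr1 at 0.931 (0.878 to 0.986) and Csf1r, the survival receptor, at 1.04 (0.990 to 1.09). Before thinning an RNA-rich cell held 22.4 P2ry12 UMIs on average and an average cell 13.97, which is 1.599-fold, where the totals on which the groups were chosen differed 2.11-fold.

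Complement genes summed to 0.998 (0.986 to 1.01), with 0 of 6 tested past the fold, and C1qa, C1qb and C1qc at 0.969, 1.04 and 0.983. Lysosome and cathepsin genes summed to 0.985 (0.975 to 0.996), with 0 of 30 past the fold, and antigen presentation genes to 0.967 (0.939 to 0.995), with 0 of 9. Genes reported for disease-associated microglia summed to 0.972 (0.958 to 0.986), and 1 of 13, the tetraspanin gene Cd9, was lower at 0.758 (0.703 to 0.817). Actin and motility genes summed to 1.08 (1.07 to 1.09), with 1 of 31 higher. The counts of these lists stand beside 5.23% higher and 4.25% lower over all genes tested.

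Immediate early genes, such as Fos and Jun, are transcribed within minutes of a stimulus, including the handling of cells. None of the 18 tested of 21 listed was higher or lower, where 5.23% and 4.25% of all genes tested were. Most of the list was chosen by the study on these same samples, so it is not independent evidence of a direction. RNA-rich cells held 58 to 220 UMIs of the list (median 120) and average cells 48 to 253 (median 114), with a ratio of 1.01 (1.001 to 1.03). Fos stood at 1.01 (0.973 to 1.05), Jun at 1.02 (0.983 to 1.05) and Egr1 at 1.05 (0.976 to 1.13). The level did not rise steadily with the total: it was 27765.8 CPM in cells of 4000 to 5000 UMIs, 33757 CPM in cells of 7000 to 8000 and 29236.8 CPM in cells of 10000 to 12000.

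The remaining lists are to be read beside 5.23% higher and 4.25% lower over all genes tested. Interferon-stimulated genes had 1 of 6 tested genes higher (Ifitm3). The integrated stress response had 2 of 7 higher (Slc7a5, an amino acid transporter, and Phgdh, the first enzyme of serine synthesis). RNA polymerase II and mediator had 1 of 25 higher (Taf10) and 1 lower. Apoptosis and p53 targets had 1 of 8 lower (Bnip3l). Genes of translocation into the endoplasmic reticulum summed to 1.09 (1.06 to 1.13), with 0 of 20 past the fold. The Myc network summed to 0.872 (0.762 to 0.996) on 250 UMIs in the RNA-rich cells, with 2 genes tested and none past the fold. No gene of cholesterol and lipid synthesis was abundant enough to be tested, and that list summed to 1.04 (0.921 to 1.18).

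The 12 genes with the highest ratios were Ccl2, B930036N10Rik, Mybbp1a, Mcm3, Rrp15, Ccl7, Tipin, Hspa1a, Cd72, Uchl5, Nap1l1 and Glipr1, with ratios from 1.64 to 2.05 (the lowest bound of their intervals was 1.23, for Cd72 and Glipr1) on 56 to 565 UMIs in the RNA-rich cells. Over all UMIs of the same cells they lay between 1.25 and 2.06, and 10 of the 12 were past the fold. Glipr1 had 28.25 CPM (17.25 to 43.63) in cells of 8000 to 9000 UMIs and 31.25 CPM (11.47 to 68.02) from 12000. Between these it had 63.13 CPM at 9000 to 10000 and 108.6 CPM at 10000 to 12000, beside 45.05 CPM at 4000 to 5000. B930036N10Rik was already higher at 8000 to 9000, with 317.8 CPM beside 150.5 CPM at 4000 to 5000. B930036N10Rik, an antisense RNA at chr1:171500568-171504111, was the best counted of them after Ccl2, with 306 CPM against 156 CPM (ratio 1.97, 1.71 to 2.26) and 1.78 from all UMIs. Nap1l1, which encodes a histone chaperone, had a ratio of 1.65 (1.31 to 2.07), and Uchl5, which encodes a deubiquitinase of the proteasome, 1.66 (1.24 to 2.18). In library 2 the ratios of the 12 genes ran from 0.956 to 2.48, with 11 above 1 and 1 below. The 1 below was Mybbp1a. Mybbp1a, Rrp15, Ccl7 and Hspa1a were under the minimum of 50 CPM in library 2 and were not tested there. B930036N10Rik had 34.0 and 27.2 CPM there, too few to be tested, and a ratio of 1.25 (0.947 to 1.64). Whether the reads of B930036N10Rik were assigned by strand is not stated in the sources used here and was not examined.

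At the other end, the 11 genes with low ratios described here were Gm26740, Rassf4, Fam103a1, Ssbp2, Akr1b10, Fli1, Epc1, Cd27, Krit1, Arhgap39 and Zmynd8. They were sparse, with 34 to 76 UMIs in the RNA-rich cells, and their ratios of 0.580 to 0.628 became 0.598 to 0.790 over all UMIs, with 9 of the 11 past the fold. Fli1 is a transcription factor of the blood lineages (ratio 0.603, 0.459 to 0.780), and Epc1 (0.607, 0.414 to 0.864) and Zmynd8 (0.628, 0.446 to 0.863, and 0.807 from 10000 UMIs) are chromatin proteins. By UMI total, not all of them were low throughout. Fli1 had 50.51 and 62.5 CPM in cells of 9000 to 10000 and of 10000 to 12000 UMIs. It had 115.8 CPM in cells of 8000 to 9000 and 130.2 CPM (84.26 to 192.2) from 12000, beside 126.5 CPM at 4000 to 5000. Epc1 had 63.56 CPM at 8000 to 9000 and 62.31 CPM at 4000 to 5000. Gm26740 was already lower at 8000 to 9000, with 86.16 CPM beside 165.5 CPM. Of the 134 lower genes 8 were in any of the lists, against 53 of the 165 higher genes and 585 of the 3156 tested.

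Higher and lower genes differed in size. The higher genes spanned a median of 11607 bp in the genome (quartiles 5513 and 23049) and their longest transcript had a median of 2389 bases. The lower genes spanned 34526 bp (15300 and 90698) with transcripts of 3658 bases, and all genes tested spanned 16600 bp (6962.5 and 37693) with 2773 bases. Of the higher genes 97.6% and of the lower genes 97.7% were protein coding, against 98.9% of those tested.

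The shares of several genes and lists changed along the scale of UMI totals. Over 8 bins of library 3, each thinned to 4000 UMIs, Malat1 went from 53846.1 CPM in the 666 cells of 4000 to 5000 UMIs down to 42375.0 CPM (41646.4 to 43113.2) in the 76 cells of 10000 to 12000. The cytokine and chemokine list went from 5655.4 up to 9029.6 CPM (8694.9 to 9373.9), Ccl2 from 253 to 740 CPM and P2ry12 from 2842.3 down to 1944.1 CPM. In the first 7 bins Malat1, P2ry12 and the cytokine list moved in 1 direction at every step.

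The 48 cells with 12000 UMIs or more did not continue this course. In them Malat1 stood at 46546.9 CPM (45586.8 to 47522.1), the cytokine and chemokine list at 7520.8 CPM (7137.9 to 7919.0), Ccl2 at 490 CPM (396 to 599) and P2ry12 at 2234.4 CPM (2027.9 to 2456.2), each between the level of the average cells and that of the bin before. Whether these droplets held more than 1 cell was not tested. In library 2 the 217 cells of that bin did continue for Malat1, from 32101 in the bin before to 30007 CPM. P2ry12 went there from 1814.0 to 1758.1 CPM and Ccl2 from 138 (114 to 165) to 128 CPM (105 to 154). The cytokine and chemokine list of library 2 had 3080.2, 2987.9 and 3124.4 CPM in its last 3 bins. Without the 48 cells, the ratio of the cytokine and chemokine list was 1.46, that of Ccl2 was 2.18 and that of P2ry12 was 0.727.

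**Figure D4:**
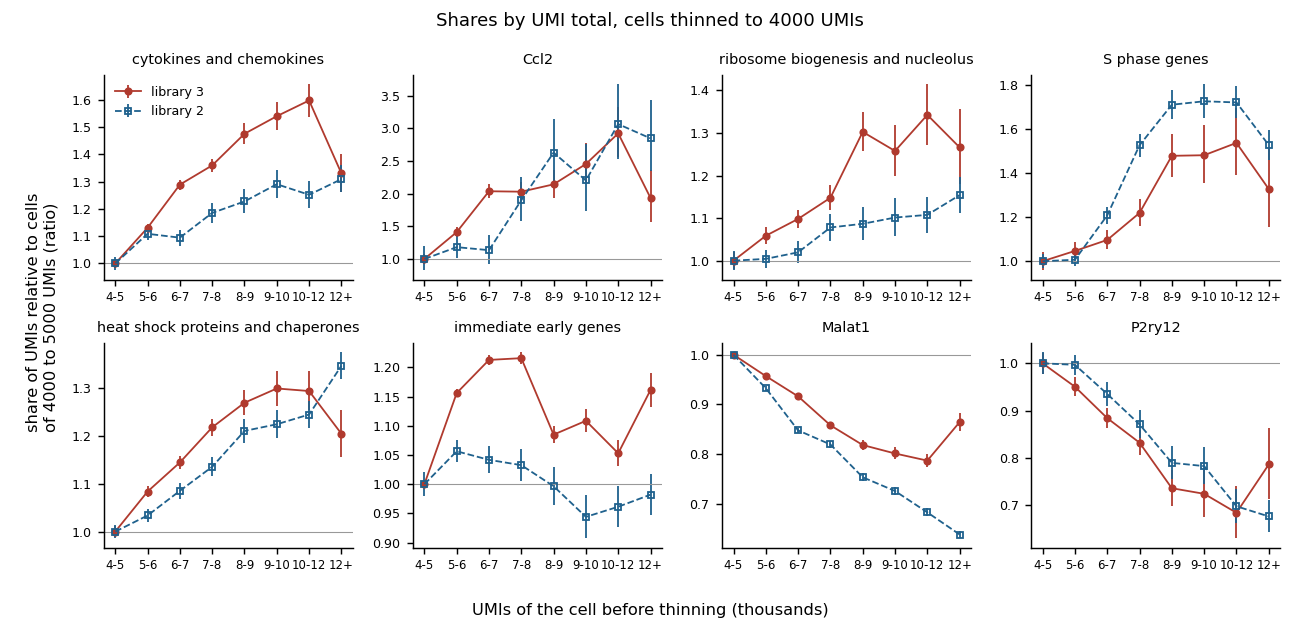
Share of UMIs relative to the cells of 4000 to 5000 UMIs (vertical axes, ratio) by UMI total before thinning (horizontal axes, in units of 1000 UMIs) for 4 gene lists, the immediate early genes and 3 genes, in library 3 (filled circles) and library 2 (open squares), with bars for 95% counting intervals. In library 3 the cytokine list climbs and Malat1 and P2ry12 decline up to 12000 UMIs, and the last bin of 48 cells turns back.

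Among the 223 RNA-rich cells themselves, the list sums were only weakly related. Over 9 pairs of lists at equal depth, Spearman's rho across cells ran from -0.337 (nuclear long noncoding RNAs with ribosomal proteins) to 0.292 (ribosome biogenesis with S phase genes). For cytokines and chemokines with S phase genes it was -0.0130 and with immediate early genes -0.0708. These sums share a fixed total of 4000 UMIs and are small counts, so such values describe these cells and nothing more.

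Library 2, whose cells the choice of library 3 did not use, gave the same comparison in other cells, at a time point that is also unknown. There 240 of 3192 genes tested were higher (7.52%) and 146 lower (4.57%). Of the 165 genes higher in library 3, 138 were tested in library 2 and 127 lay above 1, with 64 past the fold and a median ratio of 1.27. Of the 134 lower genes, 124 were tested and 104 lay below 1, with 25 past the fold and a median of 0.846. The 2662 genes past the fold in neither direction in library 3 had a median of 1.001 in library 2. The shared calls are 38.8% of the higher genes of library 3 and 26.7% of those of library 2, and 18.7% and 17.1% of the lower genes. Across the 2924 genes tested in both libraries, Pearson's r of the log2 ratios was 0.579 and Spearman's rho 0.576. Both values are a description over genes that are not independent and 2 libraries that share a protocol.

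**Figure D5:**
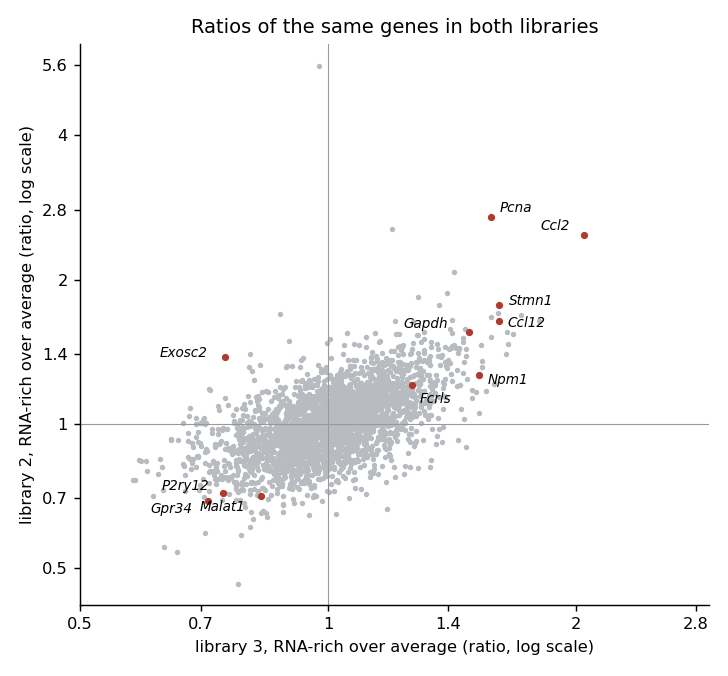
Ratio of RNA-rich over average cells in library 3 (horizontal axis, log scale) and in library 2 (vertical axis, log scale) for the 2924 genes tested in both, each a point. Ccl2, Ccl12, Gapdh and Stmn1 lie above 1 and P2ry12, Gpr34 and Malat1 below 1 on both axes, and Exosc2 lies below 1 in library 3 and above 1 in library 2.

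The chemokine cluster stood at lower levels in library 2. In library 2, Ccl2 stood at 122 CPM in RNA-rich and 49.4 CPM in average cells, a ratio of 2.48 (2.10 to 2.92), and Ccl12 at 1311.8 and 800.8 CPM, a ratio of 1.64 (1.57 to 1.71). Ccl7 had 12.7 and 7.86 CPM there, too few to be tested, and a ratio of 1.61 (0.989 to 2.60). For Tnf the ratios were 1.55 in library 3 and 1.29 (1.01 to 1.64) in library 2, and for Ccl4 1.32 and 1.02 (0.876 to 1.20). P2ry12 had 0.744 and 0.717 and Gpr34 0.714 and 0.692. Gapdh had 1.48 and 1.56, and Hsp90ab1 1.397 and 1.36.

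Other groups stood apart in size between the libraries, and the difference was not tested. The S phase list had a ratio of 1.43 in library 3 and 1.65 (1.59 to 1.70) in library 2, the G2/M list 1.21 and 1.95 (1.90 to 2.002), and tubulins and stathmin 1.17 and 1.55 (1.51 to 1.598). Pcna had 1.58 and 2.70. Ribosome biogenesis had 1.25 in library 3, with 11 of 32 genes higher, and 1.12 (1.09 to 1.15) in library 2, with 3 of 21. Over all genes tested, 5.23% were higher in library 3 and 7.52% in library 2. Malat1 had 0.829 and 0.706, and the homeostatic genes 0.965 and 0.891. The immediate early genes held 30569.5 CPM in the RNA-rich and 30160.8 CPM in the average cells of library 3 but 3397.3 and 3635.5 CPM in library 2.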

How the data were processed

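Cells sorted from mouse lumbar cord were profiled by droplet 3′ single-cell RNA sequencing. The authors deposited raw counts, as UMIs per gene and cell, in 1 table of 27998 genes and 7522 cells without normalization. The submitters' processing notes name Cell Ranger 2.1.1 and mm10. Cell barcodes carry 3 endings, taken as 3 libraries. No column was left out.

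Library 3 cells of at least 9000 UMIs and of 4000 to 6000 UMIs were each thinned to 4000 UMIs, and UMIs were summed per group and scaled to CPM. A gene was tested where its mean over both groups was at least 50 CPM, and was called higher or lower past a ratio of 1.3 either way. Ratios carry exact conditional 95% intervals and summed CPM exact Poisson intervals, both for counting error only. Shares of cells carry Clopper-Pearson intervals, which take each cell as an independent draw. The cells come from 1 pooled library and are not replicates. With 1 library per time point there was no replicate, and no test was made. The steps were tested on simulated data. There the changed genes lay above the CPM minimum and moved by more than the fold used here. Simulated cells of a group shared 1 profile, so the simulation does not cover smaller changes or variation between cells. The total of library 3 was 19769170 UMIs.

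The cells and the 30 gene lists were chosen with earlier results of these data known, and most immediate early genes come from a list that the study chose on these data. Named genes are the 12 highest and 12 lowest ratios, up to 3 at each end of a list, and 10 genes that the study names, and others were named after their values were seen, among them members past the fold of longer lists. Some genes that this rule selects are not reported here. The sort excluded doublets and none were removed here, and droplets with 2 microglia cannot be told apart from single RNA-rich cells. Positions come from GENCODE M21 (GRCm38), in which 27645 of the IDs were found, and start regions from a RefSeq table. Alternatives changed the thinning, the limits of both groups, the cells kept, the scaling, the CPM minimum and the fold. Python 3.11.15, numpy 2.4.6, pandas 2.3.3, scipy 1.17.1 and matplotlib 3.10.9 were used.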

Additional observations from a re-analysis of the deposited data

Results flagged for a closer look

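The summed share of the immediate early genes lay above 1 in library 3, at a ratio of 1.01 (interval 1.001 to 1.03), and below 1 in library 2, at 0.935 (0.911 to 0.959). The levels were 30569.5 CPM in RNA-rich and 30160.8 CPM in average cells of library 3, and 3397.3 and 3635.5 CPM in library 2. The difference between the libraries was not tested.

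Exosc2, which encodes a subunit of the RNA exosome, was the 1 gene past the fold in opposite directions. It had 49.3 CPM in RNA-rich and 65.8 CPM in average cells of library 3, a ratio of 0.749 (0.536 to 1.03, an interval that includes 1) on 44 and 389 UMIs, and 119 and 86.3 CPM in library 2, a ratio of 1.38 (1.19 to 1.597). This difference was not tested either.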

How the results depend on the processing

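Of 849 values recomputed under 17 alternatives (14 planned and 3 chosen after seeing the data), 795 moved by less than their counting interval or, for counts of genes, by less than 1.5 times, 49 moved further and 5 changed sides of 1 or of 0. Among those of the headline results, 87 stayed within these limits, 19 moved further and 4 changed sides. Over all alternatives the ratio stayed between 1.92 and 2.18 for Ccl2, 1.38 and 1.46 for cytokines and chemokines, 1.20 and 1.24 for chaperones, 1.23 and 1.27 for ribosome biogenesis, 0.722 and 0.758 for P2ry12 and 0.816 and 0.838 for nuclear long noncoding RNAs. The S phase list ran from 1.35 to 1.51 and the G2/M list from 1.11 to 1.297.

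The number of genes past the fold depended on the counts that entered it. Without thinning, 93 genes were higher and 78 lower, and the RNA-rich cells held 1134 more genes per cell, where at equal depth they held 3 fewer. Thinned to 2000 UMIs, 321 were higher and 236 lower, the difference in genes per cell was 1, and the ratio was 0.998 for immediate early genes and 1.02 for antigen presentation. With RNA-rich cells of at least 10000 UMIs 254 genes were higher, and with RNA-rich cells of 9000 to 12000 UMIs 209 were lower and the immediate early ratio was 0.998. It was 1.03 against average cells of 4500 to 5500 UMIs. A minimum of 20 CPM gave 463 higher and 526 lower genes, 100 CPM gave 75 and 46, no minimum gave 2285 and 2099, and a fold of 1.5 gave 33 and 19. Relative to the median ratio, ribosomal proteins stood at 1.06 and homeostatic genes at 0.957, and with abundant genes left out of the total at 1.08 and 0.974. The immediate early ratio thus lay on both sides of 1 across these settings. Without cells holding a UMI of Mki67, Top2a or Cdk1, no ratio could be had for Mki67 and Cdk1. No paired analysis was possible because both groups are cells of 1 library without a replicate, and the result comes from no test.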
